A study of Mus musculus with 16 samples.

Results

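The 46 genes described here encode proteins that copy DNA or prepare a cell for S phase, the stage of the cell cycle in which the genome is duplicated. They were chosen by name from what they are known to do, by a rule that uses no measured level. Earlier results of these data were known when they were chosen. They are 46 of the 54838 gene identifiers counted in each library. All 46 had counts and passed the filter on low counts that left 12612 genes for testing. They fall into 8 role groups: the MCM helicase ring (6 genes), origin licensing and helicase activation (8), DNA polymerases and primase (6), the sliding clamp, its loader and lagging-strand enzymes (9), nucleotide supply (5), chromatin assembly, DNA methylation and histone mRNA (5), E2F factors and cyclin E (4), and fork protection, checkpoint and Cdt1 removal (3). RNA was sequenced from bone marrow-derived macrophages of mice with the genotype label B6.129P2-Apoetm1Unc/J, which lack apolipoprotein E, and the strain label C57BL/6J. Every group carries this genotype, so no comparison involves mice with intact Apoe.

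Each of the 4 groups holds 4 libraries. TPCA-1+TNFα cells received 500 nM TPCA-1, an inhibitor of the NF-κB kinase IKK2, for 1 h before TNFα at 50 ng/ml for 24 h. TMP195+TNFα cells received 5 µM TMP195, an inhibitor of class IIa histone deacetylases that is not an analog of TPCA-1, followed by the same TNFα treatment. TNFα cells received the cytokine alone, and DMSO cells received the solvent. The labels do not say whether cells given TNFα alone also had DMSO, nor whether replicates came from separate mice or separate cultures, so the p-values reflect only how these libraries vary. Per the labels' protocols, cells were grown with L929-conditioned medium, a source of the macrophage growth factor CSF1, then kept without it before treatment, and were stimulated in medium free of serum. The libraries are bulk RNA, in which fewer cells in S phase and less RNA per cell cannot be told apart.

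Replication starts in separate steps. In G1 the origin recognition complex, Cdc6 and Cdt1 load the MCM ring onto DNA, and at the start of S phase kinases recruit Cdc45 and the GINS complex, which turn the ring into an active helicase. DNA polymerases α, δ and ε then synthesise the new strands with the clamp PCNA, while ribonucleotide reductase and thymidylate synthase supply precursors. Many of these genes are known targets of E2F transcription factors, which are held inactive by the retinoblastoma proteins until cyclin-dependent kinases phosphorylate them. Macrophages grown from bone marrow divide in response to CSF1, and TNFα is an inflammatory cytokine that signals through NF-κB.

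The promoter windows of 6 genes are printed here because they span the range of responses to TNFα, from the largest fall to no measurable change, and differ in their E2F letters. Each window runs from 250 bases before to 50 bases after the gene's start in RefSeq (build GRCm38.p6), 300 bases in all, printed on the strand of the gene. Capitals mark matches to the E2F letters TTTCCCGC, TTTGGCGC, TTTCGCGC or TTTGCCGC on either strand. Clspn lies at chr4:126556730-126557029, plus strand, Pclaf at chr9:65890073-65890372, plus strand, and Mcm5 at chr8:75109259-75109558, plus strand. Mcm6 lies at chr1:128359656-128359955, minus strand, Slbp at chr5:33652525-33652824, minus strand, and Pola2 at chr19:5964157-5964456, minus strand. 
Clspn: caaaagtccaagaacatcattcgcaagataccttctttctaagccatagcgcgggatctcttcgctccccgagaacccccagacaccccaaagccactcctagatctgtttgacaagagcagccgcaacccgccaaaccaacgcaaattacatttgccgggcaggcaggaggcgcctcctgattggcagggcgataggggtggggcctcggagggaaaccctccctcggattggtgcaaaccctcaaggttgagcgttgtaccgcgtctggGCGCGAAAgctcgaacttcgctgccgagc
Pclaf: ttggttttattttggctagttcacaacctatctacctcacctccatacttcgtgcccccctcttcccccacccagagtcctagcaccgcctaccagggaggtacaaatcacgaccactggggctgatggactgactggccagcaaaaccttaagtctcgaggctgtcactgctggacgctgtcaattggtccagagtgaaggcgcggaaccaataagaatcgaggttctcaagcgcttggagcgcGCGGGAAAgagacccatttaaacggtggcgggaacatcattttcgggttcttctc
Mcm5: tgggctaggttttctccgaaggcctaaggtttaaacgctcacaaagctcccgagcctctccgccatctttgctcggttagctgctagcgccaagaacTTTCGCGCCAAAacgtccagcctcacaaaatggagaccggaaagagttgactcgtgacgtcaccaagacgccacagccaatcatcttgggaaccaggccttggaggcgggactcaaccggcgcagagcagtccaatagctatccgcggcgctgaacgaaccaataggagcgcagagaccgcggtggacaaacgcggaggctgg
Mcm6: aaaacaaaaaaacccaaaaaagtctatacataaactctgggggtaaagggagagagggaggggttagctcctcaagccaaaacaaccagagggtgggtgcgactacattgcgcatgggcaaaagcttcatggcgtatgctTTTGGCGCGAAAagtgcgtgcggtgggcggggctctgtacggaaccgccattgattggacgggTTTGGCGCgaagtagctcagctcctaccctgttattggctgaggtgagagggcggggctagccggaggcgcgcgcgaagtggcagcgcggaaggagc
Slbp: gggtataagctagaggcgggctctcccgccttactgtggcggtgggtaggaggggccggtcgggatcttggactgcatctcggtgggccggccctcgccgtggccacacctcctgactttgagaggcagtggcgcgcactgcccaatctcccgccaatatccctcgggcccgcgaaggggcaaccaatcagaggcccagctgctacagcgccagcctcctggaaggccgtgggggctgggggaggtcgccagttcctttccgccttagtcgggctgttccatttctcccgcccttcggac
Pola2: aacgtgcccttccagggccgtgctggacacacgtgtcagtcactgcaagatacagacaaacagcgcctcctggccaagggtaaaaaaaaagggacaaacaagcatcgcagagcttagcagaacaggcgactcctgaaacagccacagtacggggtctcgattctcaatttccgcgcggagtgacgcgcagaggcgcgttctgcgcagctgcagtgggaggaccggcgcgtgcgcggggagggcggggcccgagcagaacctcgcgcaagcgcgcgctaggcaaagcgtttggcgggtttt
Clspn and Pclaf had 1 match each, Mcm5 had 2 that overlap each other, and Mcm6 had 3, of which 2 overlap each other. Slbp and Pola2 had none.

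Promoter windows were found for 38 of the 46 genes. Rfc2, Ccne2, Mcm4, Gins2, Tipin, Gins1, Prim2 and Pole had no entry. At least 1 E2F match stood in the windows of 17 of the 38 genes (44.7%), against 704 of 27025 genes in the whole RefSeq table (2.61%). The 17 genes with a match had a median log2 change of -2.28 with TNFα relative to DMSO (from -4.02 to -0.58), and the other 21 a median of -1.16 (from -3.85 to -0.02). The ranges overlapped for most of their length, and Rrm2, with the second largest fall of these 38, was among the genes without a match. The CCAAT box (CCAAT, either strand) was present in 24 of the 38 genes (63.2%), against 41.1% of all genes in the table. Its split was much like that of E2F, with a median log2 change of -2.07 in the 24 genes and -1.15 in the other 14. The cell cycle homology region (TTTGAA or TTCGAA, either strand) was present in 7 of the 38 (18.4%), against 21.7% of all genes. The median log2 change was -2.03 in these 7 genes and -1.64 in the other 31. These matches describe letters in a window and do not show binding.

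In units of 1e6, the libraries held 7.49 to 31.6 counted reads. The lowest total was that of TPCA-1+TNFα replicate 2, in which 44.0% of reads had no map position; in the other 15 libraries this share was 4.0% to 7.11% and totals began at 18.6. Levels are counts per 1e6 counted reads (CPM). A floor of 3 reads equals 0.0949 to 0.401 CPM on raw library totals, and it covers counting error only. The macrophage markers were present in all libraries, led by Lyz2, with 10 of 10 tested and a summed level of 12815 to 26271 CPM. Single markers changed (edgeR's quasi-likelihood test, adjusted p under 0.05). With TNFα relative to DMSO, 4 of the 10 fell and 1 rose, beside 12.4% and 10.9% of all genes tested. Relative to TNFα, 5 fell and 1 rose with TPCA-1+TNFα, beside 9.72% and 9.67% of all genes. With TMP195+TNFα relative to TNFα, 2 fell, beside 3% of all genes. Mrc1, named after its values were seen, fell most with TNFα (log2 -3.58 ± 0.29). The progenitor markers, a list of 8 that other dividing marrow cells would bring, summed to 0 to 0.440 CPM and none passed the filter, with Elane and Ctsg at 0 counts in every library. The erythroid markers summed to 0 to 0.270 CPM, and none of the 5 passed the filter. Both lists were thus at or near 0 in every group.

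TNFα was compared with DMSO to ask how 24 h of the cytokine changed the replication genes. With TNFα, 43 of the 46 genes fell and none rose, while 12.4% of all 12612 genes tested fell and 10.9% rose (edgeR's quasi-likelihood test, Benjamini-Hochberg adjusted p under 0.05). All 46 had a negative log2 change, while 50.2% of all genes had one above 0, and the median was -1.70. In 44 of them every TNFα library was below every DMSO library, an arrangement that held in this direction for 14.3% of all genes. The change was -2 or lower in 19 genes, against 1.72% of all genes, between -2 and -1 in 15, and above -1 in 12. The falls were largest for the checkpoint adaptor Clspn (log2 -4.02 ± 0.38, adjusted p = 7.51e-07), the reductase subunit Rrm2 (log2 -3.85 ± 0.35, adjusted p = 5.25e-07) and the clamp-associated factor Pclaf (log2 -3.71 ± 0.34, adjusted p = 4.45e-07). The genes that did not pass were Orc6, Pola2 and Slbp.

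**Figure D1:**
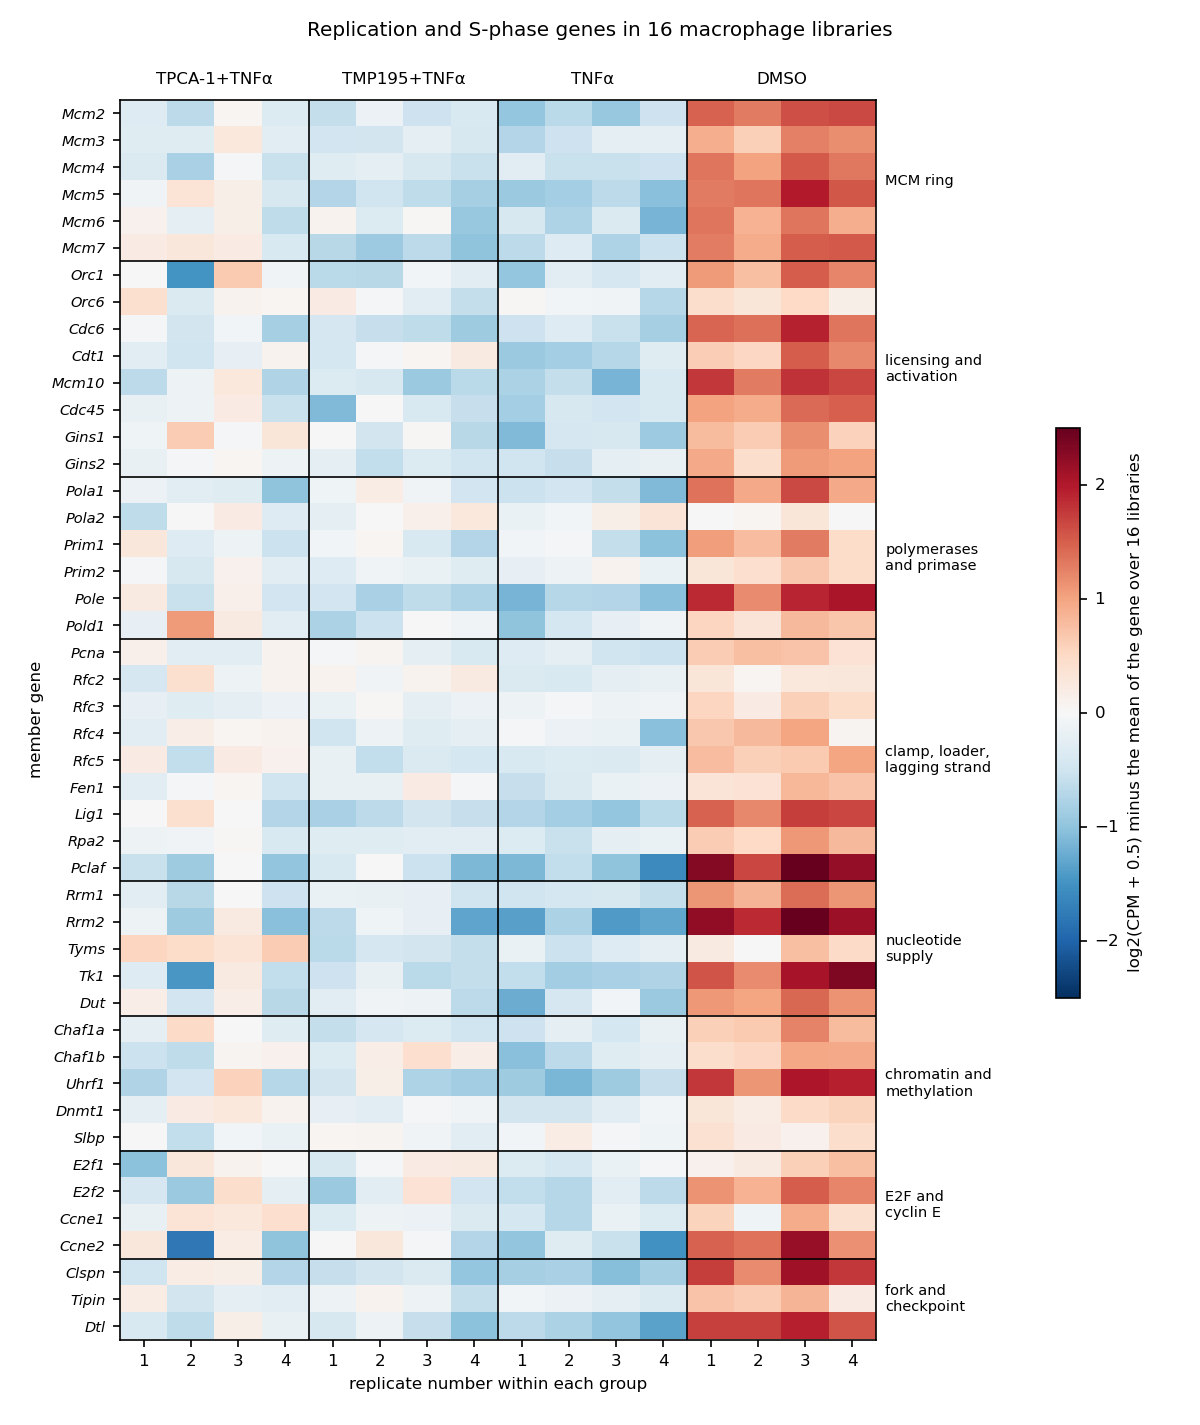
Heat map of the 46 genes (rows, by role group) in the 16 libraries (columns), coloured by log2(CPM + 0.5) minus the gene's mean over all libraries. The 4 DMSO columns at the right stand above the gene's mean for nearly every gene, and the row of Pola2 shows no such shift.

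Summed over the 46 genes, the level was 395, 406, 413 and 396 CPM in the TNFα libraries, against 964, 850, 1108 and 949 CPM in the DMSO libraries. The TNFα libraries lay close together, at 402 ± 8.50 CPM (SD, n = 4), while DMSO had 968 ± 106 CPM (SD, n = 4) and the groups did not overlap. Within DMSO, replicate 3 was the highest of its group for 34 of the 46 genes and replicate 2 the lowest for 28. Pcna alone made up 20.5% of the summed level over all libraries and Dnmt1 9.49%, so the sum follows a few abundant genes. Per kilobase of exon in DMSO cells, Pcna stood highest (73.9 ± 8.39 CPM per kb, SD, n = 4), followed by Mcm6 (20.8 ± 3.76 CPM per kb) and Mcm4 (11.8 ± 1.71 CPM per kb). Dtl (0.507 ± 0.0598 CPM per kb), Chaf1a (0.564 ± 0.132 CPM per kb) and Clspn (0.578 ± 0.164 CPM per kb) stood lowest, and their values did not separate beyond the SD.

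**Figure D2:**
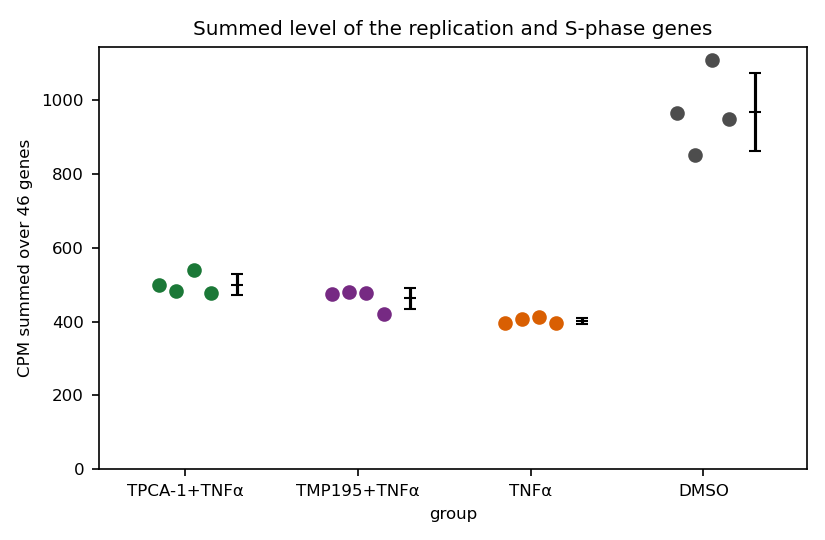
CPM summed over the 46 genes in each library (points, replicates 1 to 4 from the left of each group) with the group mean ± SD at the right. The TNFα points lie between 395 and 413 CPM and the DMSO points between 850 and 1108 CPM, with both inhibitor groups from 419 to 540 CPM.

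All 6 genes of the MCM ring, the core of the replicative helicase, fell with TNFα, with a median log2 change of -1.93. Mcm6 (ENSMUSG00000026355, chromosome 1, 128331590 to 128359664; GRCm38 throughout) had 33.0, 25.5, 34.3 and 19.4 CPM in TNFα libraries, against 112, 80.9, 112 and 82.4 CPM in DMSO libraries (log2 -1.79 ± 0.24, adjusted p = 2.27e-05). Mcm4 (ENSMUSG00000022673, chromosome 16, 15623897 to 15637400) had 13.6, 11.1, 11.2 and 11.5 CPM in TNFα libraries, against 43.1, 34.2, 49.2 and 42.5 CPM in DMSO libraries (log2 -1.83 ± 0.15, adjusted p = 1.96e-07). The groups were far apart for both genes, and replicates 1 and 3 were the higher ones of Mcm6 in each group. The largest fall of the ring was that of Mcm5 (ENSMUSG00000005410, chromosome 8, 75109569 to 75128439; log2 -2.63 ± 0.20), with 2.56, 2.75, 3.19 and 2.32 CPM with TNFα and 13.9, 14.3, 22.5 and 16.6 CPM with DMSO. Mcm2 (log2 -2.38 ± 0.17), Mcm7 (log2 -2.03 ± 0.19) and Mcm3 (log2 -1.46 ± 0.17) fell as well; the 6 proteins form the ring in equal numbers.

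Of the 8 licensing and activation genes 7 fell, with a median log2 change of -2.02. Mcm10, which helps to start unwinding, changed most (log2 -2.95 ± 0.32), followed by the loader Cdc6 (log2 -2.52 ± 0.25). The largest ORC subunit Orc1 (log2 -2.28 ± 0.46) and the helicase activator Cdc45 (log2 -2.20 ± 0.30) stood next, and Orc1 was measured from few reads, 4, 14, 17 and 14 in TNFα libraries and 47, 38, 79 and 54 in DMSO libraries. The GINS subunit gene Gins2 (ENSMUSG00000031821, chromosome 8, 120578633 to 120589304) had 7.05, 6.58, 8.45 and 8.88 CPM with TNFα, against 19.9, 13.8, 21.8 and 20.9 CPM with DMSO (log2 -1.30 ± 0.15, adjusted p = 7.61e-06). Gins1, another subunit, had log2 -1.75 ± 0.27, and Cdt1, which brings MCM rings to origins, had log2 -1.84 ± 0.24.

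Orc6 (ENSMUSG00000031697, chromosome 8, 85299632 to 85308278), the smallest ORC subunit, was the exception among the licensing genes. It had 9.15, 8.54, 8.45 and 5.26 CPM in TNFα libraries and 12.3, 11.2, 12.8 and 9.99 CPM in DMSO libraries (log2 -0.56 ± 0.20, adjusted p = 0.0522). Every TNFα library was lower than every DMSO library, but replicate 4 was the lowest of both groups and the spread within groups was wide beside the difference. When libraries were paired by replicate number, as a block in the fit, the same gene passed (log2 -0.58 ± 0.15, adjusted p = 0.0064).

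Of the 6 polymerase and primase genes 5 fell, and the log2 changes of the 6 ran from -3.23 to -0.02. Pole (ENSMUSG00000007080, chromosome 5, 110286306 to 110337474), the catalytic subunit of the leading-strand polymerase ε, had 0.625, 1.03, 1.02 and 0.724 CPM in TNFα libraries, against 8.67, 5.22, 8.94 and 9.78 CPM in DMSO libraries (log2 -3.23 ± 0.26, adjusted p = 1.44e-07). Pola1, the catalytic subunit of polymerase α, had log2 -2.11 ± 0.24, and Pold1, that of polymerase δ, had log2 -1.08 ± 0.30. Of the primase subunits, Prim1 had log2 -1.40 ± 0.27 and Prim2 had log2 -0.59 ± 0.13. Prim2 (ENSMUSG00000026134, chromosome 1, 33453810 to 33669795) had 9.21, 9.67, 11.3 and 9.46 CPM with TNFα, against 13.3, 14.4, 17.2 and 14.8 CPM with DMSO, again without overlap.

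Pola2 (ENSMUSG00000024833, chromosome 19, 5940542 to 5964202), the second subunit of polymerase α, had 10.4, 11.2, 13.1 and 14.8 CPM in TNFα libraries and 11.8, 12.2, 14.6 and 11.6 CPM in DMSO libraries (log2 -0.02 ± 0.17, adjusted p = 0.961). The groups overlapped over most of their range, while its partner Pola1 fell. The sign of this near-zero change depended on single libraries, with log2 0.06 without TNFα replicate 1, 0.03 without TNFα replicate 2 and 0.07 without DMSO replicate 3.

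All 9 clamp, loader and lagging-strand genes fell, with a median log2 change of -1.13. Pcna (ENSMUSG00000027342, chromosome 2, 132249162 to 132253314), the sliding clamp that tethers polymerases to DNA, had 92.2, 97.4, 81.1 and 78.7 CPM in TNFα libraries, against 179, 194, 188 and 149 CPM in DMSO libraries (log2 -1.02 ± 0.13, adjusted p = 1.47e-05). Pclaf, which binds the clamp, had the largest log2 change of this role group, with 1.19, 1.91, 1.35 and 0.724 CPM with TNFα and 17.7, 11.3, 22.8 and 16.4 CPM with DMSO. Lig1, the ligase that joins Okazaki fragments, had log2 -2.50 ± 0.21, and Fen1, the nuclease that trims them, had log2 -0.91 ± 0.16. The single-strand binding subunit Rpa2 had log2 -1.13 ± 0.14.

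The 4 clamp loader genes of the set fell too. Rfc2 (ENSMUSG00000023104, chromosome 5, 134581366 to 134601805) had 28.5, 28.1, 31.5 and 32.5 CPM in TNFα libraries, against 45.6, 38.4, 44.4 and 45.1 CPM in DMSO libraries (log2 -0.52 ± 0.14, adjusted p = 0.00944), and the groups did not overlap. Rfc3 had log2 -0.58 ± 0.11, Rfc4 log2 -1.13 ± 0.26 and Rfc5 log2 -1.16 ± 0.17. The loader also acts outside S phase, in DNA repair.

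All 5 nucleotide supply genes fell, with a median log2 change of -2.05. Ribonucleotide reductase, which makes deoxynucleotides, is built from the products of both Rrm1 and Rrm2. Rrm1 (ENSMUSG00000030978, chromosome 7, 102441695 to 102469771) had 18.5, 19.1, 19.7 and 17.1 CPM with TNFα, against 57.3, 47.7, 69.7 and 56.8 CPM with DMSO (log2 -1.64 ± 0.15, adjusted p = 3.73e-07). Rrm2 (ENSMUSG00000020649, chromosome 12, 24708241 to 24714146) had 1.31, 2.21, 1.25 and 1.40 CPM with TNFα, against 21.01, 16.4, 31.0 and 20.1 CPM with DMSO. The groups were separate for both subunits, and TNFα replicate 2 was the highest of its group for Rrm2. Thymidine kinase Tk1, of the salvage route, had log2 -3.46 ± 0.38, and the dUTPase Dut, which keeps uracil out of DNA, had log2 -2.05 ± 0.31. Tyms (ENSMUSG00000025747, chromosome 5, 30058202 to 30073617), the thymidylate synthase of the route that makes thymidylate anew, changed least of the 5, with 4.21, 3.14, 3.75 and 4.01 CPM with TNFα and 5.67, 4.73, 8.45 and 6.87 CPM with DMSO (log2 -0.77 ± 0.17, adjusted p = 0.00283).

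Of the 5 chromatin genes 4 fell. Uhrf1, which guides DNA methylation to newly copied DNA, had log2 -3.20 ± 0.39, and the chromatin assembly subunits Chaf1a and Chaf1b had log2 -1.38 ± 0.21 and -1.36 ± 0.24. The maintenance methyltransferase Dnmt1 (ENSMUSG00000004099, chromosome 9, 20907209 to 20959888) had 39.3, 39.3, 45.2 and 51.4 CPM with TNFα, against 67.3, 61.5, 75.6 and 80.0 CPM with DMSO (log2 -0.70 ± 0.12, adjusted p = 0.000415). Its groups were separate, although the highest TNFα library, replicate 4, was the nearest to the DMSO range. Slbp (ENSMUSG00000004642, chromosome 5, 33634952 to 33652574), which binds the stem-loop of histone mRNAs, had 27.2, 32.4, 28.0 and 26.6 CPM with TNFα and 37.6, 33.3, 30.7 and 39.2 CPM with DMSO (log2 -0.30 ± 0.13, adjusted p = 0.111). The highest TNFα value of Slbp exceeded the lowest DMSO value, and the difference did not pass the test. Slbp is known to be controlled through the cell cycle mainly at the protein level.

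The 4 E2F and cyclin E genes fell as well. E2f1 (ENSMUSG00000027490, chromosome 2, 154559407 to 154569892), an activating E2F factor, had 8.75, 8.20, 10.1 and 10.9 CPM in TNFα libraries, against 12.1, 13.2, 17.4 and 19.2 CPM in DMSO libraries (log2 -0.71 ± 0.24, adjusted p = 0.0374). Without pairing, this call ended when any 1 of TNFα replicate 1, 2 or 3 or DMSO replicate 3 or 4 was left out, with an adjusted p of up to 0.108. With libraries paired by replicate number as a block in the fit, E2f1 passed more clearly (log2 -0.70 ± 0.16, adjusted p = 0.00334). Ccne1 (ENSMUSG00000002068, chromosome 7, 38097984 to 38107534), the cyclin that activates CDK2 at the start of S phase, had 3.58, 2.85, 4.40 and 3.86 CPM with TNFα, against 7.62, 4.58, 9.97 and 6.81 CPM with DMSO (log2 -0.97 ± 0.21, adjusted p = 0.00255). The lowest DMSO value, that of replicate 2, was close to the TNFα range. The related factor E2f2 had log2 -2.46 ± 0.41, and the second cyclin E gene, Ccne2, had log2 -2.80 ± 0.46.

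The 3 fork genes fell. Clspn (ENSMUSG00000042489, chromosome 4, 126556935 to 126593903), the adaptor through which ATR activates CHK1 at stalled forks, had 0.284, 0.294, 0.164 and 0.290 CPM with TNFα, against 4.15, 2.66, 5.54 and 4.26 CPM with DMSO. These were 5, 6, 5 and 6 reads in TNFα libraries and 79, 54, 124 and 82 reads in DMSO libraries, so the low side rests on few reads. Dtl (ENSMUSG00000037474, chromosome 1, 191537356 to 191575544), which directs the destruction of Cdt1 in S phase, had 0.909, 0.785, 0.624 and 0.386 CPM with TNFα, against 6.78, 6.80, 8.09 and 6.14 CPM with DMSO (log2 -3.37 ± 0.29, adjusted p = 2.09e-07). For both genes the highest TNFα library remained below the lowest DMSO library. Tipin (ENSMUSG00000032397, chromosome 9, 64281581 to 64305424), part of the fork protection complex, had 6.93, 6.48, 6.01 and 5.50 CPM with TNFα, against 12.1, 11.6, 13.5 and 8.48 CPM with DMSO (log2 -0.88 ± 0.18, adjusted p = 0.00159).

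**Figure D3:**
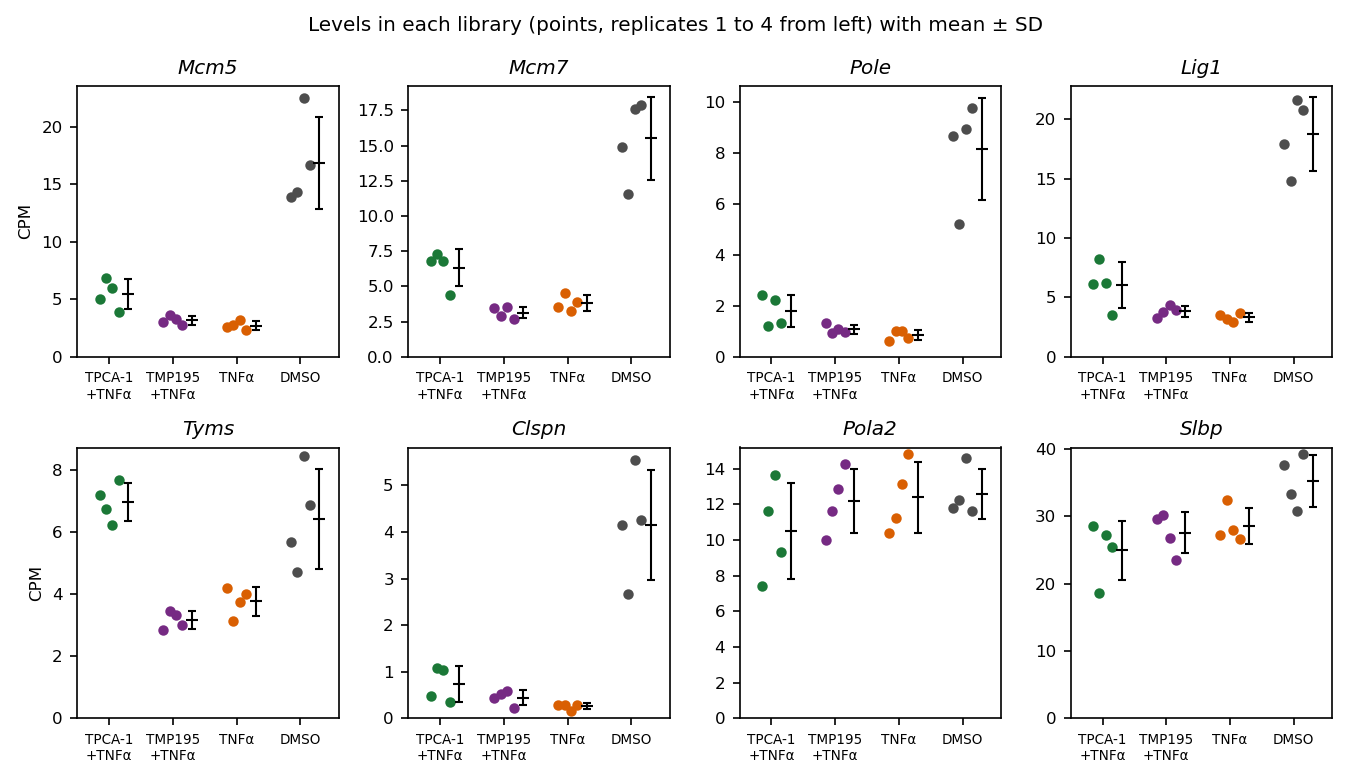
CPM in each library (points, replicates 1 to 4 from the left) with the group mean ± SD (bars) for Mcm5, Mcm7, Pole, Lig1, Tyms, Clspn, Pola2 and Slbp. TNFα points lie below DMSO points except in Pola2 and Slbp, and the Tyms points of TPCA-1+TNFα (6.24 to 7.68 CPM) lie above those of TNFα (3.14 to 4.21 CPM).

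Other cell cycle genes, taken from lists of the same pathway, were read beside the 46. All 25 genes of mitosis and G2/M fell with TNFα, with a median log2 change of -2.25, among them the mitotic kinase Cdk1 (log2 -1.81 ± 0.14) and the spindle motors Kif23 (log2 -4.29 ± 0.34) and Kif11 (log2 -3.53 ± 0.34). Of 36 other replication genes tested, 15 fell and 1 rose, with a median of -0.39. The origin-firing factor Ticrr (log2 -3.82 ± 0.41), the histone chaperone Asf1b (log2 -1.73 ± 0.20) and the fork protein Wdhd1 (log2 -1.86 ± 0.23) fell. The related chaperone Asf1a rose (log2 0.63 ± 0.18). Of 9 checkpoint genes 2 fell, the kinases Chek1 (log2 -2.88 ± 0.41) and Wee1 (log2 -2.12 ± 0.23).

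Of 24 kinase, cyclin, E2F and pocket protein genes 12 fell and none rose. They included the G1 cyclin Ccnd1 (log2 -2.71 ± 0.23), the repressive factor E2f8 (log2 -3.16 ± 0.32) and the E2F partner Tfdp2 (log2 -1.85 ± 0.19). The CDK inhibitor genes went both ways, 2 up and 2 down of 7. Cdkn2b rose (log2 2.88 ± 0.22) and Cdkn1a rose (log2 0.73 ± 0.18), while Cdkn2c (log2 -0.88 ± 0.21) and Cdkn1b (log2 -0.42 ± 0.13) fell. Of 20 other deoxynucleotide and folate genes 4 fell and 2 rose. The mitochondrial kinases Dguok (log2 -0.55 ± 0.11) and Tk2 (log2 -0.57 ± 0.13) were among those that fell, and deoxycytidine kinase Dck (log2 1.18 ± 0.25) and the mitochondrial folate enzyme Mthfd2 (log2 0.91 ± 0.20) rose.

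Markers of other cells were also set beside these falls. The lymphocyte list, of which only Ighm of 7 passed the filter, summed to 15.0 to 32.2 CPM with TNFα and 36.4 to 73.9 CPM with DMSO (Ighm log2 -1.22 ± 0.30, adjusted p = 0.00535), with the T cell gene Cd3e at no more than 0.0938 CPM and the B cell gene Cd79a at no more than 0.148 CPM in any library. The fibroblast and endothelial list, of which only Pecam1 of 6 passed, summed to 3.81 to 7.31 CPM with TNFα and 7.35 to 10.5 CPM with DMSO (Pecam1 log2 -0.66 ± 0.27, adjusted p = 0.0913), with Col3a1 at 0. The neutrophil list, with 3 of 8 tested, summed to 145.8 to 187 CPM with TNFα and 54.1 to 94.1 CPM with DMSO. Csf3r was its most abundant gene, and S100a9, Ly6g and Retnlg stood at 0. Only S100a8 of the 3 passed, a gene named after its values were seen (log2 5.38 ± 0.40, adjusted p = 6.83e-08). S100a8 had 66.0 ± 17.6 CPM with TNFα and 1.56 ± 0.755 CPM with DMSO (SD). Csf3r (log2 0.58 ± 0.24, adjusted p = 0.0879) and Mmp8 (log2 0.41 ± 0.37, adjusted p = 0.499) did not pass. The part of these cells in the fall of the replication genes was not tested.

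TMP195+TNFα was compared with TNFα alone to ask what class IIa HDAC inhibition added. None of the 46 genes passed the test in either direction, where 2.95% of all 12612 genes rose and 3% fell (edgeR's quasi-likelihood test, adjusted p under 0.05). At an unadjusted p under 0.05 there were 8 of the 46, beside 18.8% of all genes; DESeq2 called 0 and limma-voom 4, all higher, beside 7.56% of all genes higher with limma-voom. The log2 change was above 0 in 36 of 46, against 52.6% of all genes, with a median of 0.22 beside 0.02 over all genes tested. Every TMP195+TNFα library was above every TNFα library in 1 gene, Rfc2, an arrangement seen in 8.03% of all genes. Same-numbered libraries of these groups deviated together, and with that pairing as a block in the fit 4 genes rose, beside 6.91% of all genes that rose in the same fit, so the share of members called was near that of all genes. They were Chaf1b (log2 0.72 ± 0.13, adjusted p = 0.00193), Cdt1 (log2 0.73 ± 0.17, adjusted p = 0.00879), Mcm6 (log2 0.39 ± 0.10, adjusted p = 0.0145) and Pola1 (log2 0.66 ± 0.18, adjusted p = 0.0216).

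The values per library of these 4 genes overlapped between the groups. Cdt1, with the lowest adjusted p without the block (log2 0.72 ± 0.24, adjusted p = 0.0941), had 3.93, 5.34, 5.76 and 6.54 CPM in TMP195+TNFα libraries, against 2.67, 2.85, 3.19 and 4.39 CPM in TNFα libraries. Mcm6 had 46.9, 34.6, 44.8 and 22.6 CPM in TMP195+TNFα libraries, against the 19.4 to 34.3 CPM given above for TNFα. In both genes, and also in Chaf1b and Pola1, TMP195+TNFα was the higher within each replicate number. Chaf1b had 4.59, 6.70, 8.09 and 6.71 CPM with TMP195+TNFα and 2.61, 3.63, 4.77 and 4.92 CPM with TNFα, and Pola1 had 3.88, 4.88, 3.91 and 2.89 CPM with TMP195+TNFα and 2.73, 2.90, 2.63 and 1.69 CPM with TNFα. Pcna had 112, 121, 97.4 and 87.6 CPM with TMP195+TNFα (log2 0.26 ± 0.13, adjusted p = 0.302), and Rfc2 had 39.5, 34.7, 39.5 and 43.3 CPM (log2 0.38 ± 0.14, adjusted p = 0.12). Of the markers of other cells Ighm was lower with TMP195+TNFα (log2 -1.11 ± 0.30, adjusted p = 0.0387), and its part was not tested.

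The summed level of the 46 genes was 474, 481, 478 and 419 CPM in TMP195+TNFα libraries, against 395 to 413 CPM with TNFα alone. All 4 were above the TNFα range, and the lowest, replicate 4, was close to it. That replicate was the lowest of its group for 21 of the 46 genes, and replicate 2 was the highest for 21. A few members lay below TNFα in log2 terms, the lowest being Mcm7 (log2 -0.28 ± 0.19, adjusted p = 0.518) and Tyms (log2 -0.25 ± 0.18, adjusted p = 0.526), neither past the threshold. Of the pathway lists, none of the 36 other replication genes and none of the 25 mitosis genes passed. The CDK inhibitor Cdkn1c rose (log2 2.84 ± 0.33) and Cdkn1a fell (log2 -0.65 ± 0.18). The G1 kinase Cdk6 (log2 0.46 ± 0.11), Mthfd2 (log2 0.80 ± 0.19) and Wee1 (log2 0.96 ± 0.23) rose, and the cyclin Ccnd3 fell (log2 -0.62 ± 0.17).

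TPCA-1+TNFα was compared with TNFα alone to ask what IKK2 inhibition added. Of the 46 genes 12 rose and none fell, beside 9.67% of all genes that rose and 9.72% that fell (edgeR's quasi-likelihood test, adjusted p under 0.05). The log2 change was above 0 in 42 of 46 against 52.3% of all genes, and the median was 0.46 beside 0.02 over all genes. Every TPCA-1+TNFα library was above every TNFα library in 6 genes, beside 8.71% of all genes. The opposite held for Rfc3 alone (log2 -0.12 ± 0.12, adjusted p = 0.485) and for 9.75% of all genes. The risen genes were spread over the role groups: 3 of the MCM ring, 2 of nucleotide supply, 2 of fork protection and 1 of each of the other 5 groups. They comprised Clspn, Dtl, Pole, Rrm2, Gins1, Mcm5, Tyms, Lig1, Mcm7, Ccne1, Mcm2 and Dnmt1.

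**Figure D4:**
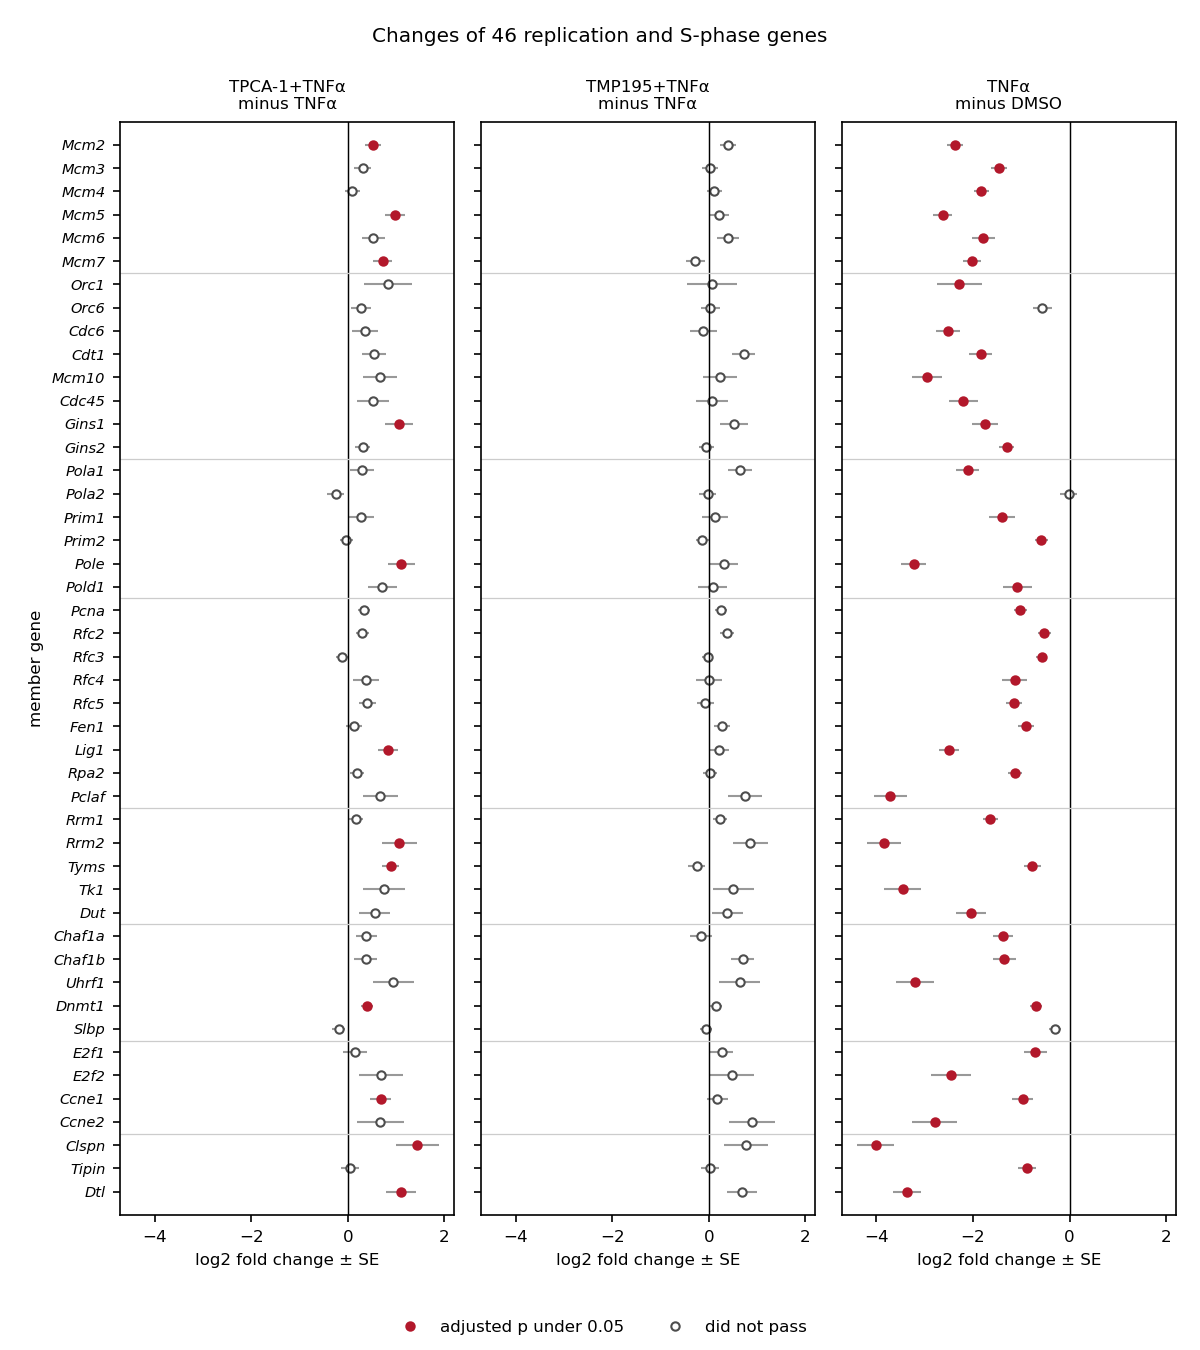
Log2 fold change ± SE of each of the 46 genes (rows, grouped by role) for TPCA-1+TNFα minus TNFα (left), TMP195+TNFα minus TNFα (middle) and TNFα minus DMSO (right), 4 libraries a group. Filled points passed an adjusted p of 0.05, which were 12, 0 and 43 of the 46 genes in the panels from left to right.

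The thymidylate synthase gene Tyms had the lowest adjusted p of the 12 (log2 0.89 ± 0.17, adjusted p = 0.00156), with 7.19, 6.76, 6.24 and 7.68 CPM in TPCA-1+TNFα libraries, against 4.21, 3.14, 3.75 and 4.01 CPM in TNFα libraries. Mcm5 had 4.99, 6.89, 5.99 and 3.89 CPM with TPCA-1+TNFα (log2 0.98 ± 0.20, adjusted p = 0.00235), against 2.32 to 3.19 CPM with TNFα. The groups were separate for both genes. Pole had 2.44, 1.22, 2.23 and 1.31 CPM with TPCA-1+TNFα (log2 1.10 ± 0.28, adjusted p = 0.0107), against 0.625 to 1.03 CPM with TNFα, and Lig1 had 6.11, 8.24, 6.19 and 3.50 CPM with TPCA-1+TNFα (log2 0.83 ± 0.21, adjusted p = 0.0102), against 3.52, 3.19, 2.89 and 3.67 CPM with TNFα. The lowest TPCA-1+TNFα value of Lig1, replicate 4, fell inside the TNFα range. These 4 calls held when any single library was left out.

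The other 8 calls each ended when at least 1 library was left out. Clspn had 0.489, 1.08, 1.04 and 0.340 CPM with TPCA-1+TNFα (log2 1.44 ± 0.45, adjusted p = 0.031), which were 10, 8, 21 and 7 reads. Its call ended without TNFα replicate 1, 2 or 3 or TPCA-1+TNFα replicate 2 or 3, with an adjusted p of up to 0.128. Rrm2 had 3.76, 2.03, 4.95 and 1.75 CPM (log2 1.07 ± 0.36, adjusted p = 0.0489) and lost its call without TNFα replicate 1, 3 or 4 or TPCA-1+TNFα replicate 1 or 3 (adjusted p up to 0.187). Dtl had 1.22, 0.946, 1.98 and 1.46 CPM with TPCA-1+TNFα (log2 1.11 ± 0.31, adjusted p = 0.0182), above every TNFα library, and lost its call without TNFα replicate 3 or TPCA-1+TNFα replicate 3 (adjusted p up to 0.0723).

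Gins1 (log2 1.06 ± 0.28, adjusted p = 0.0146) lost its call without TNFα replicate 1 (adjusted p = 0.0531) and Mcm7 (log2 0.72 ± 0.19, adjusted p = 0.0131) without TNFα replicate 3 (adjusted p = 0.0528). Mcm7 had 6.79, 7.30, 6.83 and 4.38 CPM with TPCA-1+TNFα, against 3.52, 4.56, 3.25 and 3.91 CPM with TNFα, and only replicate 4 of TPCA-1+TNFα fell within the TNFα range. Mcm2 (log2 0.53 ± 0.17, adjusted p = 0.0355) lost its call without TNFα replicate 1, 2 or 3 or TPCA-1+TNFα replicate 3 or 4 (adjusted p up to 0.139). Ccne1 had 4.35, 6.49, 6.09 and 6.90 CPM with TPCA-1+TNFα (log2 0.68 ± 0.22, adjusted p = 0.036) and lost its call without TNFα replicate 1 or 2 or TPCA-1+TNFα replicate 2, 3 or 4 (adjusted p up to 0.119). Dnmt1 had 46.5, 62.4, 65.1 and 57.3 CPM (log2 0.40 ± 0.12, adjusted p = 0.0329) and lost its call without TNFα replicate 1, 2 or 3 or TPCA-1+TNFα replicate 2, 3 or 4 (adjusted p up to 0.115). The count fell to 6 of the 46 without TNFα replicate 1, TNFα replicate 3 or TPCA-1+TNFα replicate 3, and no gene passed a test against a minimum fold of 1.5.

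Of the 5 most abundant genes of the set, only Dnmt1 passed in this comparison without a replicate block. Pcna had 125, 95.9, 95.3 and 122 CPM with TPCA-1+TNFα (log2 0.33 ± 0.13, adjusted p = 0.0823), and Mcm6 had 47.5, 37.7, 48.8 and 28.2 CPM (log2 0.53 ± 0.23, adjusted p = 0.124). Rfc2 had log2 0.30 ± 0.14 (adjusted p = 0.14), and Rrm1 had 21.8, 16.1, 26.4 and 18.2 CPM (log2 0.16 ± 0.15, adjusted p = 0.465). With a replicate block in the fit, Mcm6 (log2 0.53 ± 0.10, adjusted p = 0.000804) and Pcna (log2 0.34 ± 0.11, adjusted p = 0.0326) passed as well. Rfc2 (adjusted p = 0.111) and Rrm1 (adjusted p = 0.347) did not. Not all replicate numbers paired these groups by the criterion used. The values of Pcna, Mcm6 and Rrm1 overlapped those of TNFα, although the log2 change of Mcm6 was above the median of the 46 genes. Summed over the 46 genes the TPCA-1+TNFα libraries had 499, 481, 540 and 477 CPM, each above the 395 to 413 CPM of TNFα. In the shallow TPCA-1+TNFα replicate 2, Orc1 had 0 reads, Tk1 had 1 read, and E2f2 and Ccne2 had 2 reads each. All lay below the 0.401 CPM that 3 reads would give there on raw library totals. In the same library Rfc5 stood at 4.32 CPM, beside 7.44 to 8.02 CPM in the other 3.

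Among the pathway lists, 4 of 36 other replication genes rose with TPCA-1+TNFα and 1 fell. Asf1b (log2 0.91 ± 0.20) and the RNase H2 subunit Rnaseh2a (log2 0.61 ± 0.14) rose, and the MCM-binding protein gene Mcmbp fell (log2 -0.47 ± 0.09). Ccnd1 (log2 0.81 ± 0.22) and Tfdp2 (log2 0.70 ± 0.20) rose, and E2f3 (log2 -0.28 ± 0.09) and E2f5 (log2 -0.66 ± 0.22) fell, of 24 genes. In nucleotide and folate metabolism 4 of 20 rose and 2 fell. The folate enzyme gene Shmt1 (log2 1.45 ± 0.32) rose, while Dck (log2 -2.06 ± 0.26) and the deaminase Dctd (log2 -0.79 ± 0.25) fell. Wee1 rose (log2 0.88 ± 0.24), and none of the 25 mitosis genes or 7 CDK inhibitor genes passed; the mitosis median was 0.27.

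Markers of other cells differed in this comparison too. The fibroblast and endothelial list summed to 15.6 to 40.0 CPM with TPCA-1+TNFα and 3.81 to 7.31 CPM with TNFα (Pecam1 log2 2.08 ± 0.28, adjusted p = 4.24e-05). The lymphocyte list summed to 27.2 to 62.1 CPM with TPCA-1+TNFα and 15.0 to 32.2 CPM with TNFα (Ighm log2 0.94 ± 0.30, adjusted p = 0.0347). The neutrophil list summed to 58.9 to 103.2 CPM with TPCA-1+TNFα and 145.8 to 187 CPM with TNFα. Their part in the rise of the 12 genes was not tested.

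The inhibitors were then set against each other under TNFα, which tests whether their effects differed. With TMP195+TNFα 6 of the 46 genes were lower than with TPCA-1+TNFα and none was higher, beside 12.6% of all genes lower and 13.1% higher. The share of members called was thus near that of all genes. The median log2 change was -0.22, and 13 of 46 were above 0, against 50.1% of all genes. In 5 genes (Tyms, Mcm7, Mcm5, Gins2 and Chaf1a) every TMP195+TNFα library was below every TPCA-1+TNFα library, as in 11.1% of all genes. Tyms, Mcm7, Mcm5, Lig1 and Rfc5 were chosen for values per library after their results were seen. Markers of other cells differed as well: the fibroblast and endothelial list summed to 3.77 to 6.05 CPM with TMP195+TNFα and 15.6 to 40.0 CPM with TPCA-1+TNFα (Pecam1 log2 -2.45 ± 0.28, adjusted p = 7.19e-06). The lymphocyte list summed to 7.26 to 11.6 CPM with TMP195+TNFα and 27.2 to 62.1 CPM with TPCA-1+TNFα (Ighm log2 -2.05 ± 0.31, adjusted p = 0.000116). The neutrophil list summed to 92.5 to 125 CPM with TMP195+TNFα and 58.9 to 103.2 CPM with TPCA-1+TNFα. Their part in the 6 calls was not tested.

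Tyms had 2.84, 3.47, 3.33 and 3.02 CPM in TMP195+TNFα libraries, against 6.24 to 7.68 CPM in TPCA-1+TNFα libraries (log2 -1.14 ± 0.18, adjusted p = 0.000141). Mcm7 had 3.44, 2.91, 3.54 and 2.68 CPM in TMP195+TNFα libraries, against 4.38 to 7.30 CPM in TPCA-1+TNFα libraries (log2 -0.9997 ± 0.19, adjusted p = 0.00104). Mcm5 had 3.002, 3.61, 3.28 and 2.76 CPM in TMP195+TNFα libraries, against 3.89 to 6.89 CPM in TPCA-1+TNFα libraries (log2 -0.76 ± 0.20, adjusted p = 0.00968). The groups did not overlap in any of these, and the 3 calls held when any single library was left out. The call of Mcm5 ended with limma-voom (adjusted p = 0.0574).

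The remaining calls were Pole (log2 -0.78 ± 0.28, adjusted p = 0.0468), Lig1 (log2 -0.62 ± 0.21, adjusted p = 0.0373) and Rfc5 (log2 -0.48 ± 0.17, adjusted p = 0.0496). Pole had 1.31, 0.938, 1.11 and 0.977 CPM with TMP195+TNFα and 2.44, 1.22, 2.23 and 1.31 CPM with TPCA-1+TNFα, and the groups overlapped. Lig1 had 3.28, 3.75, 4.34 and 3.95 CPM with TMP195+TNFα and 6.11, 8.24, 6.19 and 3.50 CPM with TPCA-1+TNFα, and Rfc5 had 5.95, 4.31, 5.18 and 4.93 CPM with TMP195+TNFα and 7.97, 4.32, 8.02 and 7.44 CPM with TPCA-1+TNFα. Each of these 3 calls ended in 6 of the 8 fits that left out 1 library of either group, with adjusted p up to 0.129 for Pole, 0.111 for Lig1 and 0.142 for Rfc5. The count was 3 without TMP195+TNFα replicate 2, TMP195+TNFα replicate 4 or TPCA-1+TNFα replicate 3. Most of the 12 genes that rose with TPCA-1+TNFα relative to TNFα did not pass in this direct test, among them Clspn (log2 -0.68 ± 0.42, adjusted p = 0.246), Dtl (log2 -0.42 ± 0.30, adjusted p = 0.31), Rrm2 (log2 -0.21 ± 0.35, adjusted p = 0.692) and Gins1 (log2 -0.54 ± 0.28, adjusted p = 0.166).

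**Figure D5:**
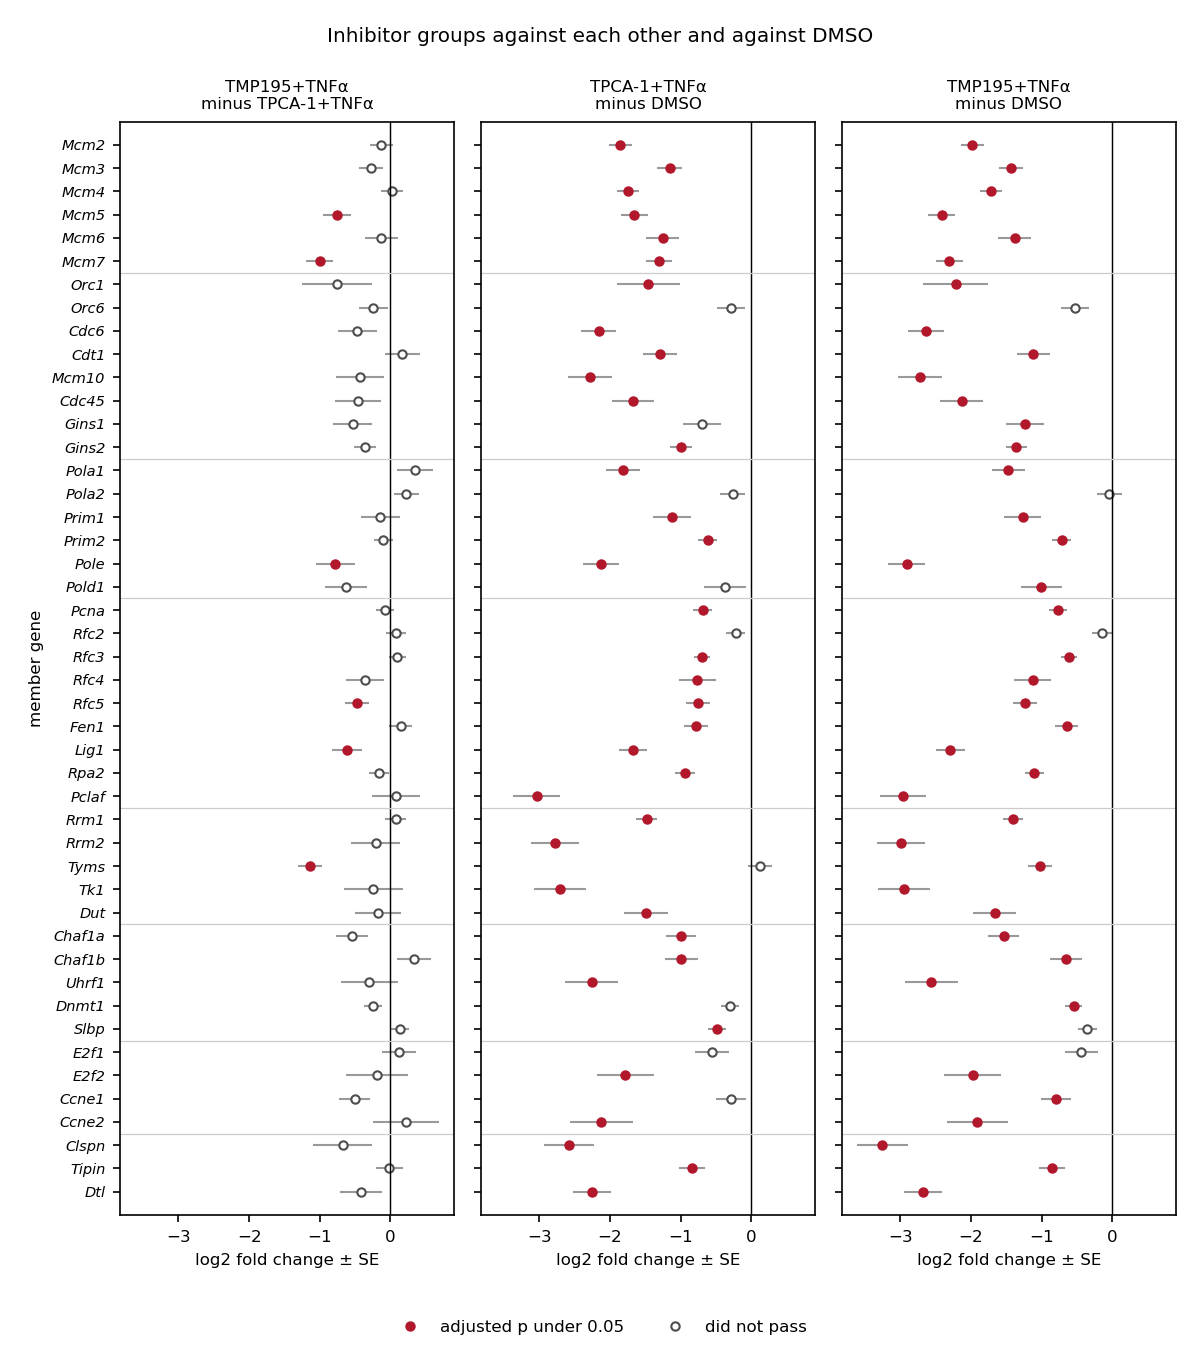
Log2 fold change ± SE of each of the 46 genes (rows, grouped by role) for TMP195+TNFα minus TPCA-1+TNFα (left), TPCA-1+TNFα minus DMSO (middle) and TMP195+TNFα minus DMSO (right), 4 libraries a group. Filled points passed an adjusted p of 0.05, which were 6, 37 and 41 of the 46 genes, and Tyms is the one point above 0 in the middle panel.

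Both inhibitor groups were also compared with DMSO, to ask whether the genes stood at the level of cells without TNFα. These comparisons share the DMSO libraries with each other and with the comparison of TNFα alone. With TMP195+TNFα 41 of 46 genes were lower than with DMSO and none higher, beside 13.9% of all genes lower, with a median log2 change of -1.39. The 5 that did not pass were Orc6 (log2 -0.53 ± 0.20, adjusted p = 0.0613), Slbp (log2 -0.35 ± 0.13, adjusted p = 0.0526), E2f1 (log2 -0.44 ± 0.23, adjusted p = 0.188), Rfc2 (log2 -0.14 ± 0.14, adjusted p = 0.499) and Pola2 (log2 -0.04 ± 0.18, adjusted p = 0.901). Paired by replicate number as a block, Orc6 (adjusted p = 0.00834), Slbp (adjusted p = 0.0392) and E2f1 (adjusted p = 0.0400) were lower too. In 42 of the 46 genes every TMP195+TNFα library was below every DMSO library, against 15.4% of all genes. Without the block, the call of Chaf1b ended when TMP195+TNFα replicate 1, 2 or 4 or DMSO replicate 3 or 4 was left out (adjusted p up to 0.129), and that of Pold1 without TMP195+TNFα replicate 1 or 2 (adjusted p up to 0.0545). With the block and all libraries, both Chaf1b (adjusted p = 0.000598) and Pold1 (adjusted p = 0.0047) passed. Pola2 changed sign, to log2 0.04, both without TMP195+TNFα replicate 1 and without DMSO replicate 3. The marker genes Ighm (log2 -2.33 ± 0.31, adjusted p = 1.95e-05) and Pecam1 (log2 -1.04 ± 0.28, adjusted p = 0.00916) were lower than in DMSO as well, and their part was not tested.

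With TPCA-1+TNFα 37 of 46 genes were lower than with DMSO and none higher, beside 15.5% of all genes lower, with a median log2 change of -1.21. In 36 of the 46 genes every TPCA-1+TNFα library was below every DMSO library, against 14.1% of all genes. The genes that did not pass were Orc6 (log2 -0.29 ± 0.20, adjusted p = 0.301), Gins1 (log2 -0.70 ± 0.27, adjusted p = 0.0555), Pola2 (log2 -0.27 ± 0.18, adjusted p = 0.275), Pold1 (log2 -0.37 ± 0.29, adjusted p = 0.357), Rfc2 (log2 -0.22 ± 0.14, adjusted p = 0.234), Tyms (log2 0.12 ± 0.17, adjusted p = 0.635), Dnmt1 (log2 -0.30 ± 0.12, adjusted p = 0.0773), E2f1 (log2 -0.56 ± 0.24, adjusted p = 0.0854) and Ccne1 (log2 -0.29 ± 0.21, adjusted p = 0.318). Without the shallow TPCA-1+TNFα replicate 2 the count was 41, and Gins1 (log2 -0.85, adjusted p = 0.0283), Pold1 (log2 -0.73, adjusted p = 0.0430), Rfc2 (log2 -0.37, adjusted p = 0.0293) and E2f1 (log2 -0.70, adjusted p = 0.0495) were lower too. The share of all genes lower in that fit is not given here, so this growth cannot be read as particular to the members. A miss of the threshold does not show that the genes concerned stood at the DMSO level. Tyms came nearest to it among the genes that had fallen with TNFα, with 6.97 ± 0.614 CPM with TPCA-1+TNFα and 6.43 ± 1.60 CPM with DMSO (SD, n = 4 each), and its log2 change turned to -0.01 without DMSO replicate 2. The call of Rfc4 ended in 6 fits that left out 1 library (adjusted p up to 0.110), those without DMSO replicate 1, 2 or 3 or TPCA-1+TNFα replicate 1, 3 or 4. That of Orc1 ended without DMSO replicate 3 or TPCA-1+TNFα replicate 4 (adjusted p up to 0.0630). Among the markers of other cells, Pecam1 was higher than in DMSO (log2 1.41 ± 0.27, adjusted p = 0.000665) and Ighm did not pass (log2 -0.28 ± 0.29, adjusted p = 0.485), and their part was not tested.

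The remaining values per library place the other named genes in both inhibitor groups. Gins2 had 8.62, 6.38, 7.83 and 7.05 CPM with TMP195+TNFα and 8.80, 9.86, 10.5 and 9.24 CPM with TPCA-1+TNFα. Dnmt1 had 47.1, 44.2, 52.3 and 51.1 CPM with TMP195+TNFα, below the DMSO range, and 46.5 to 65.1 CPM with TPCA-1+TNFα, which overlapped it. For Mcm4 the values were 13.5, 14.1, 12.5 and 11.2 CPM with TMP195+TNFα and 12.9, 9.32, 16.4 and 11.2 CPM with TPCA-1+TNFα, all far below the DMSO range that began at 34.2 CPM. E2f1 overlapped DMSO in both, at 8.41, 10.9, 13.2 and 13.2 CPM with TMP195+TNFα and 5.33, 13.9, 12.1 and 11.3 CPM with TPCA-1+TNFα. Its TPCA-1+TNFα values were spread widely, with replicate 1 the lowest of all 16 libraries.

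The 3 fork genes were lower than in DMSO in both inhibitor groups. Clspn had 0.437, 0.516, 0.582 and 0.212 CPM with TMP195+TNFα, and its log2 change from DMSO was -3.25 ± 0.36 with TMP195+TNFα and -2.58 ± 0.35 with TPCA-1+TNFα. Dtl had 1.20, 1.55, 1.00 and 0.595 CPM with TMP195+TNFα, with log2 -2.68 ± 0.27 from DMSO there and log2 -2.26 ± 0.27 with TPCA-1+TNFα. Tipin had 6.55, 7.69, 6.56 and 4.63 CPM with TMP195+TNFα and 8.26, 5.14, 6.09 and 5.88 CPM with TPCA-1+TNFα, with smaller changes from DMSO of log2 -0.85 ± 0.18 and log2 -0.83 ± 0.18 in the same order. All 25 mitosis genes were lower than in DMSO in both inhibitor groups, with medians of -2.10 for TMP195+TNFα and -1.99 for TPCA-1+TNFα.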

How the data were processed

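RNA from 16 libraries of bone marrow-derived macrophages was measured, 4 in each of 4 groups. The authors deposited counts of reads per gene, aligned with STAR 2.6.1d per the submitters' processing notes, which name the builds GRCm38 and mm10. These deposited counts are raw whole numbers, and each file gives them unstranded and by strand. Column 4, the strand with at least 5 times the reads of its opposite, was used; the opposite strand held 3.19% to 3.72%. The annotation release is not given in the sources used here, and 54809 of 54838 gene IDs matched GENCODE M21. Lines that name no gene (the first 4) stayed out of library totals and tests. Per the file headers, reads mapped to several places stand in 1 of these lines, so genes with near copies may read low.

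Counts were tested in R 4.3.3 with edgeR 4.0.16 (TMM factors, filterByExpr, quasi-likelihood F test, 2-sided), with all 16 libraries in 1 model of group means and 6 contrasts. P-values were adjusted by Benjamini-Hochberg over 12612 genes, with a threshold of 0.05. CPM use TMM-scaled totals, and SEs are of log2 fold changes. The fit was tested on simulated data. Alternatives were other factors, no filter, unstranded counts, the compared groups alone, a minimum fold of 1.5, DESeq2 1.42.0, limma-voom (limma 3.58.1), a replicate block and leaving out each library.

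The pairing of libraries by replicate number was checked with correlations between same-numbered libraries after group means were removed. All 4 pairs passed 0.1 for TNFα with DMSO (0.321 to 0.653), TMP195+TNFα with TNFα (0.358 to 0.648) and TMP195+TNFα with DMSO (0.262 to 0.621), so the numbers were taken to pair these groups. In contrasts with TPCA-1+TNFα not all pairs passed, and the lowest were those of its shallow replicate 2.

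The genes, lists and rules were chosen with earlier results of these data known. Values in every library were given for the 2 most abundant genes of each role group, for genes that missed the threshold with TNFα, and for up to 4 called genes with the largest change in each inhibitor contrast. Pathway genes were named by adjusted p, up to 3 a direction with TNFα and 2 with an inhibitor; some listed genes are not reported here. Other values per library (Mcm5, Mcm7, Tyms, Lig1, Rfc5, Pclaf, Cdt1, Chaf1b, Pola1 and the genes with read counts) were chosen after they were seen.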

Additional observations from a re-analysis of the deposited data

Results flagged for a closer look

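The 46 genes and their summed level gave 188 sets of 4 libraries, of which 10 held a library that stood apart from the other 3 by Dixon's criterion at the 95% level; chance alone flags about 1 set in 20. In TPCA-1+TNFα, replicate 3 stood high for Mcm3, at 19.12 CPM beside 12.66 to 12.84 CPM in the others, and for Uhrf1, at 3.07 CPM beside 0.9287 to 1.216 CPM. Also in TPCA-1+TNFα, the shallow replicate 2 stood low for Rfc5, at 4.324 CPM beside 7.439 to 8.023 CPM. In TMP195+TNFα, replicate 4 stood low for Rrm1, at 18.44 CPM beside 22.79 to 23.25 CPM, and for the summed level of the 46 genes, at 419.4 CPM beside 473.6 to 480.9 CPM. In TNFα, Mcm4 was 13.58 CPM in replicate 1, with 11.14 to 11.53 CPM in the others. Rrm2 was 2.208 CPM in TNFα replicate 2, with 1.249 to 1.399 CPM in the others, and Clspn was 0.1643 CPM in TNFα replicate 3, with 0.2842 to 0.2944 CPM in the others. In DMSO, Cdc6 was 8.36 CPM in replicate 3, with 5.461 to 5.936 CPM in the others, and Rfc2 was 38.39 CPM in replicate 2, with 44.44 to 45.6 CPM in the others.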

How the results depend on the processing

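The counts of called genes were most stable for the contrasts with DMSO: with TNFα 43, and 42 to 43 when single libraries were left out; with TMP195+TNFα 41, and 39 to 41; with TPCA-1+TNFα 37, and 35 to 41. A minimum fold of 1.5 left 32, 31 and 25 of these in the same order, 0 of 12 for TPCA-1+TNFα against TNFα and 1 of 6 between the inhibitors. For TPCA-1+TNFα against TNFα, 6 genes passed with only those groups in the fit, 9 without the filter on low counts, and 6 to 12 with single libraries left out (10 without the shallow TPCA-1+TNFα replicate 2). Between the inhibitors, 3 passed without the filter, with only those groups or with limma-voom, and 3 to 5 with single libraries left out (5 without that library). For TMP195+TNFα against TNFα, 0 genes passed in every fit without 1 library, 1 with only those groups, 4 with limma-voom and 4 with the replicate block. The cause of these shifts was not tested, beyond the smaller number of libraries or the stricter threshold in some. Except for limma-voom and the replicate block in TMP195+TNFα against TNFα, the share of all genes called in these alternative fits is not given here. The shifts cannot be read as particular to the members.

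In contrasts with TPCA-1+TNFα the replicate numbers did not pair the samples by the criterion used. In each, 5 of 8 libraries correlated best with their own number. The lowest same-number correlations, -0.02 to 0.03, were those of the shallow TPCA-1+TNFα replicate 2. Of the other same-number pairs with TPCA-1+TNFα, only replicate 4 with TMP195+TNFα (0.0922) missed 0.1. With the replicate block 15 genes passed for TPCA-1+TNFα against TNFα, 7 between the inhibitors and 40 for TPCA-1+TNFα against DMSO. The block gave 44 for TNFα against DMSO and 44 for TMP195+TNFα against DMSO. In an alternative chosen after seeing the data, the block was fitted without TPCA-1+TNFα replicate 2. It gave 7 genes for TMP195+TNFα against TNFα and 19 for TPCA-1+TNFα against TNFα. Between the inhibitors it gave 8, of which 7 were lower and 1, Rfc2, higher (log2 0.28, adjusted p = 0.0149). In the block fit with all libraries, 6.91% of all genes rose for TMP195+TNFα against TNFα, beside 2.95% in the main fit. For the other counts with a block the share of all genes is not given here, so their growth cannot be read as particular to the members.

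Single genes gave 2563 fits with the same call and direction, 56 that newly passed, 91 that no longer passed and 6 with a reversed sign. The reversals were of changes near 0. For TNFα against DMSO, Pola2 ranged from -0.11 to 0.067 over fits without 1 library, with 0.06 without TNFα replicate 1, 0.03 without TNFα replicate 2 and 0.067 without DMSO replicate 3. For TMP195+TNFα against DMSO it ranged from -0.13 to 0.040. Tyms, for TPCA-1+TNFα against DMSO, ranged from -0.011 to 0.27. The summed level with TNFα was 392.67 CPM on raw library totals, beside 402 CPM. With each of the scaling factors used, the median log2 change of all genes lay between -0.06 and 0.09 in every contrast. Depth limits genes such as Clspn, Orc1 and Tk1, with fewer than 20 reads in most treated libraries.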
